A study of Mus musculus with 24 samples.

Results

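Hox genes encode homeodomain transcription factors that give cells along the body axis their rostral or caudal identity. In mice they lie in 4 chromosomal clusters, Hoxa to Hoxd, and were taken here as the protein-coding genes whose GENCODE M21 symbol starts with Hoxa, Hoxb, Hoxc or Hoxd and a digit. The rule used no measured value, and it found 39 of the 38924 genes listed for each library: 11 in Hoxa, 10 in Hoxb, 9 in Hoxc and 9 in Hoxd. Of these, 38 had a value, and 35 were high enough to be tested.

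RNA was measured in the whole spinal cord of 24 mice aged 8 weeks, 13 male and 11 female, by sequencing poly(A)-selected RNA. Gars encodes glycyl-tRNA synthetase, and mutant mice carried 1 dominant GarsP278KY allele beside 1 wild-type allele, which models the inherited motor neuropathy Charcot-Marie-Tooth disease type 2D. Gcn2, gene symbol Eif2ak4, encodes a kinase that starts the integrated stress response. The groups were Gcn2-/- with mutant Gars (5 mice) or wild-type Gars (3), Gcn2+/- with mutant (4) or wild-type Gars (4), and Gcn2+/+ with mutant (4) or wild-type Gars (4). The strain label of all mice is B6J;CASTxB6.129. The labels name no promoter or Cre driver for either allele. Titles of the libraries begin with a number shared by 1 to 6 libraries, whose meaning is not stated.

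The paralog number of a Hox gene, 1 to 13, follows its order in the cluster and, in the embryo, how far rostral its expression reaches: low numbers reach the hindbrain and high numbers stay near the tail. In the cord, Hox proteins with Pbx and Meis partners set which motor columns and pools form at each level, and Polycomb repressors keep the caudal genes silent in rostral cells. A whole cord pools every level from neck to tail. In such bulk samples, fewer cells of a type and less RNA per cell cannot be told apart.

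Library totals ran from 19.7 to 32.4 M expected counts, and a count of 0 allowed up to 0.0926 CPM in the largest library and 0.152 CPM in the smallest (3 counts, counting error only). CPM, the count scaled to a common library total, used TMM-adjusted totals here. Eif2ak4 followed its labels: it averaged 13 ± 1.28 and 13.6 ± 1.91 CPM in Gcn2-/- cords with mutant and wild-type Gars, 22.4 ± 1.41 and 22.7 ± 0.895 CPM in Gcn2+/- cords, and 32.05 ± 1.01 and 31.2 ± 2.39 CPM in Gcn2+/+ cords (SD, n = 3 to 5). Gars averaged between 134.6 and 148 CPM in the 6 groups, and as the mutant allele is still transcribed its level does not check the labels. Forebrain and midbrain markers summed to 3.10 to 5.50 TPM, with Otx2 at 0 in all 24 libraries, against 17947 to 27067 TPM for cord neuron and glia markers. TPM, the share of all transcripts, divides by transcript length and so allows levels of different genes to be compared. In 5 libraries the markers of Schwann cells and nerve roots stood apart: their 14 markers summed to 3132 and 1430 CPM in Gcn2+/+ Gars mutant replicates 4 and 2, to 440 CPM in Gcn2+/- Gars mutant replicate 4, and to 2689 and 1439 CPM in Gcn2+/- Gars wild-type replicates 3 and 1, against 153 to 228 CPM in the other 19 libraries. The same 5 libraries were highest in the 20 markers of meninges and fibroblasts, at 336 to 1838 CPM against 189 to 284 CPM. All 14 nerve root markers were detected, with Dhh at 0 in 1 library.

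In mouse build GRCm38, Hoxa lies on chromosome 6 from 52155590 to 52260880 on the minus strand, 2.78 Mb from Gars. Hoxb lies on chromosome 11 from 96194316 to 96368256, Hoxc on chromosome 15 from 102921103 to 103036852, and Hoxd on chromosome 2 from 74668310 to 74765142, all on the plus strand, with Hoxd 43.6 Mb from Eif2ak4. These positions come from GENCODE M21 and not from the deposited tables, which name no build. Hoxd4 has no value here: 3 transcripts that the release assigns to it were counted under Hoxd3, so Hoxd3 values may include Hoxd4. Hoxc5 and Hoxc10 share exon sequence, and Hoxa3 and Hoxd11 each include 1 transcript of a readthrough gene. Antisense transcripts overlap exons of Hoxa3, Hoxa4, Hoxa7, Hoxa11, Hoxb2, Hoxb3, Hoxb5 and Hoxd3. Whether the counting used strand is not stated, so reads of these genes and of their antisense partners cannot be told apart.

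Promoter sequence was on hand for 22 Hox genes, as 24 windows from 250 bases before to 50 after the start (RefSeq, GRCm38.p6). Shown are those of Hoxb8, the most abundant member, and of Hoxa13, whose level moved with the other tested genes of paralogs 12 and 13. Also shown are those of Hoxa11, Hoxd10 and Hoxd11, which moved with one another, as described below. Capitals mark TTTATG or CATAAA, the letters bound by caudal-type (Cdx) factors, which switch on trunk Hox genes in the embryo.
Hoxb8, chr11:96281655-96281954, plus strand: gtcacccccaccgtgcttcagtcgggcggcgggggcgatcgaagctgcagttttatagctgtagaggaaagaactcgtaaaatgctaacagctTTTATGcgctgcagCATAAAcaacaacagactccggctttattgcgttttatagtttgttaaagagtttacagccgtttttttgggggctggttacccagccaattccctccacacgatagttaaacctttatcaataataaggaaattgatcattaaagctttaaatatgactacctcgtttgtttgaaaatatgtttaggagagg
Hoxa13, chr6:52260831-52261130, minus strand: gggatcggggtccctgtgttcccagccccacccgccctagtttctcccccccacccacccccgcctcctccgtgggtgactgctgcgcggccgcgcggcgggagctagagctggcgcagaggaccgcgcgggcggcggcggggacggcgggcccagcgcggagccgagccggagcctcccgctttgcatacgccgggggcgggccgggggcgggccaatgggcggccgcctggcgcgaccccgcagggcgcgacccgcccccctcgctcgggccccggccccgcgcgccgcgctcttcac
Hoxa11, chr6:52245761-52246060, minus strand: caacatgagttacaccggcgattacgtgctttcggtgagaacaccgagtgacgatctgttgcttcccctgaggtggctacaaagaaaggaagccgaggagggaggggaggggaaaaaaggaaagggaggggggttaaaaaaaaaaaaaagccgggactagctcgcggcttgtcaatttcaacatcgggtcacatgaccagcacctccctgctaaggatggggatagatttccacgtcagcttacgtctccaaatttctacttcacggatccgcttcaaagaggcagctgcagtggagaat
Hoxd10, chr2:74691641-74691940, plus strand: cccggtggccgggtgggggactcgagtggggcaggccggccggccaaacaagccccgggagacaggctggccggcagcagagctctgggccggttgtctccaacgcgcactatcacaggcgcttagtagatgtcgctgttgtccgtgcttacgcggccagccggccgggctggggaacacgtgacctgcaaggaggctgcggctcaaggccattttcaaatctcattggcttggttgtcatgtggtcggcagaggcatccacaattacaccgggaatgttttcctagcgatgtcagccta
Hoxd11, first start, chr2:74679308-74679607, plus strand: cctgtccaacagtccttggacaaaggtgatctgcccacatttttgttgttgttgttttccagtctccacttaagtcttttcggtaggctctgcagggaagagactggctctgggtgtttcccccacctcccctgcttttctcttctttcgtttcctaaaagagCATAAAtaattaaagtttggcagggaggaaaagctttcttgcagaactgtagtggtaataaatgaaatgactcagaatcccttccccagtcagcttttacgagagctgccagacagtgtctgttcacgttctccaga
Hoxd11, second start, chr2:74682073-74682372, plus strand: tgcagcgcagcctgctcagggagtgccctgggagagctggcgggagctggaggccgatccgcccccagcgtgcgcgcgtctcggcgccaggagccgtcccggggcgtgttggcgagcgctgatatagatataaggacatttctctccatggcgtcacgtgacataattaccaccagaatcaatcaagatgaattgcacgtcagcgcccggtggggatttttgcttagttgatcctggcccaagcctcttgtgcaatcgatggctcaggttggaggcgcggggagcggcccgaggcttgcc

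The Hoxb8 window held 2 matches, and the first Hoxd11 start held 1. On either strand the caudal-type letters were found in 5 of 24 Hox windows (20.8%), against 11.9% of all 32851 windows. TGATNNAT, the joint Pbx and Hox motif, was found in 4 of 24 (16.7%) against 8.85%, and AGGTCA, a site of retinoic acid receptors, in 7 of 24 (29.2%) against 16.3%. The median GC content was 57.7% in the Hox windows and 52.7% in all windows. These are letter matches in a short window and were not tested.

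Hox transcripts were abundant in the adult cord, and the middle paralogs dominated. All Hox genes together summed to 804 ± 64.7 TPM (SD, n = 24; range 679 to 912), of which the Hoxb cluster gave 350.3, Hoxa 207, Hoxc 135 and Hoxd 112 TPM. Paralog 8 genes gave the largest sum, 222 ± 23.2 TPM or 27.6% of the total. The sums on either side of it were 98.3 ± 8.05 TPM for paralog 7 and 131 ± 17.1 TPM for paralog 9. Rostral of these, paralogs 2 to 6 summed to 14.9, 61.5, 23.0, 51.1 and 94.4 TPM, in that order. Caudal of them the sums fell off steeply: 75.9 ± 10.6 TPM for paralog 10, 20.6 ± 6.01 for 11, 6.06 ± 1.96 for 12 and 3.31 ± 1.75 for 13. The paralog 13 sum ran from 0.32 to 6.66 TPM between libraries, a wider relative range than that of any other paralog.

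**Figure D1:**
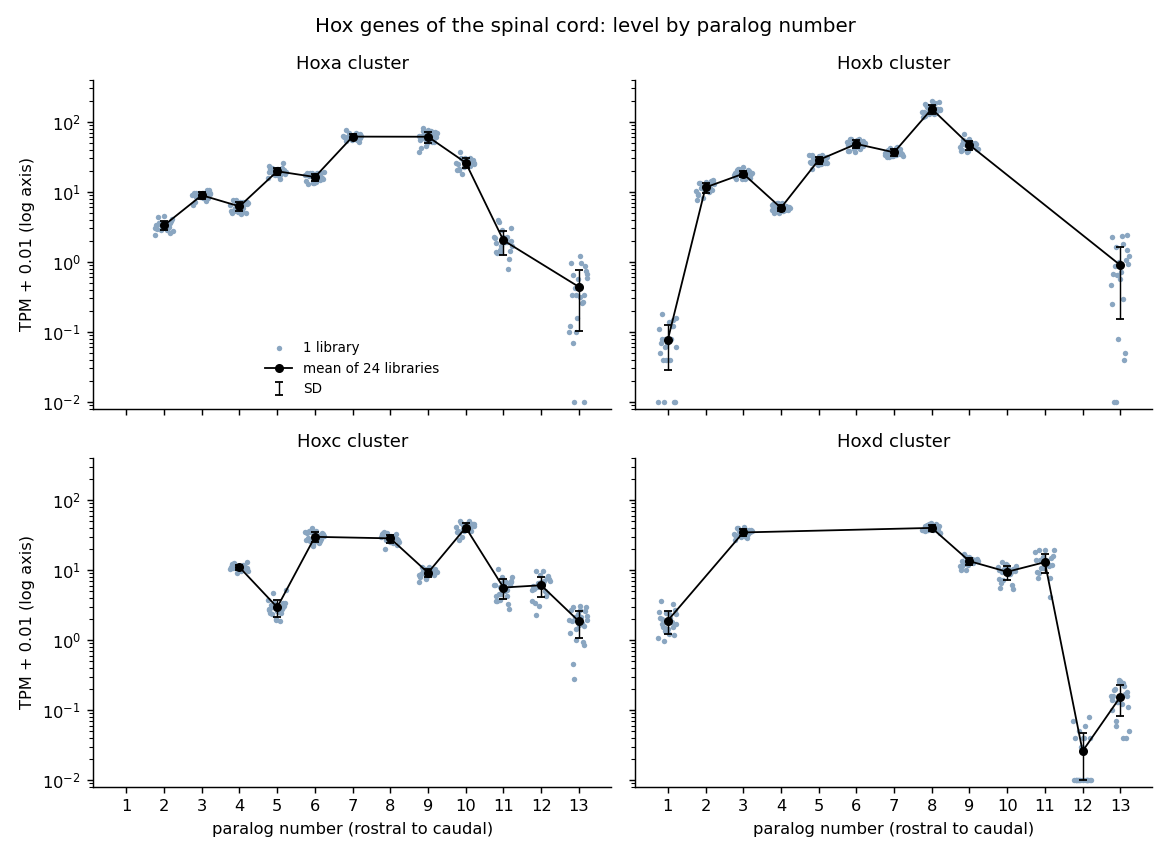
Level of 37 Hox genes by paralog number, 1 panel per cluster, as TPM + 0.01 on a log axis. Pale points are the 24 libraries, black points their means, and bars the SD; lower bars stop at 0 TPM where the SD exceeds the mean (Hoxd12). Each cluster peaks between paralogs 7 and 10 and drops toward paralog 13.

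Hoxb8, which patterns dorsal horn sensory circuits, was the most abundant member at 153 ± 22.6 TPM, and its lowest library (119 TPM) lay above the highest library of every other member. Next came Hoxa7 at 61.6 ± 5.48 and Hoxa9 at 61.3 ± 11.3 TPM, which differed by less than their SD. Then came Hoxb6 at 48.4 ± 5.86, Hoxb9 at 46.8 ± 6.90, Hoxc10 at 40.4 ± 5.98 and Hoxd8 at 39.9 ± 3.74 TPM, each within 1 SD of its neighbour in the order. Over the whole order, 27 of 37 neighbouring pairs differed by less than the larger SD of the pair. In all, 20 members reached 10 TPM and 6 stayed below 1 TPM.

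Genes with known places in the cord were each detected. Hoxa5, needed for phrenic motor neurons of the neck, stood at 19.7 ± 2.33 TPM and Hoxc5, which shares that role, at 2.92 ± 0.787 TPM. Hoxc6 and Hoxc8, which act in motor neurons at forelimb level, stood at 29.8 ± 4.69 and 28.3 ± 3.74 TPM. Hoxc9, which sets thoracic identity, stood at 9.13 ± 1.08 TPM. Hoxc10, Hoxa10 and Hoxd10, which mark hindlimb (lumbar) levels, stood at 40.4 ± 5.98, 26.1 ± 3.98 and 9.42 ± 2.12 TPM, and Hoxd11 and Hoxa11, at and below the same levels, at 12.9 ± 3.93 and 2.02 ± 0.765 TPM. The libraries thus held transcripts of genes known to act at neck, forelimb, thoracic and hindlimb levels. From which level the RNA of each gene came cannot be told in whole cords.

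The ends of the series were the scarcest. Hoxb1, which acts in hindbrain facial motor neurons, was low at 0.0671 ± 0.0489 TPM, with 0 to 5 counts per library and 0 in 4. Hoxb2, also a hindbrain gene, reached 11.6 ± 1.91 TPM, and Hoxd1, which patterns pain-sensing neurons, 1.89 ± 0.672 TPM. At the caudal end Hoxc13 stood at 1.84 ± 0.780, Hoxb13, which limits growth of the tail end, at 0.888 ± 0.747, and Hoxa13 at 0.430 ± 0.337 TPM. Hoxd13 had 1 to 11 counts per library and Hoxd12 was at 0 in 14 libraries, with no more than 2 counts in any. Hoxb1, Hoxd12 and Hoxd13 were therefore not tested.

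The steps along a cluster were the same in nearly every library. Of 34 steps from a gene to its next caudal neighbour in the same cluster, 27 went the same way in all 24 libraries. In Hoxb, for example, Hoxb8 was above both Hoxb7 and Hoxb9 in 24 of 24. The steps that varied were those between genes of like level. Hoxa9 was above Hoxa7 in 12 libraries and below in 12, and Hoxc12 was above Hoxc11 in 13 and below in 10.

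The spread over libraries rose at the caudal end. The coefficient of variation of CPM over the 24 libraries had a median of 13.997% for the 7 tested genes of paralogs 1 to 3, 10.8% for the 14 of paralogs 4 to 8, 13.1% for the 7 of paralogs 9 and 10, and 35.8% for the 7 of paralogs 11 to 13. Hoxa3 (6.33%), Hoxa9 (6.69%) and Hoxc4 (7.39%) were the steadiest. A wide spread was not confined to the caudal end, as Hoxd1, of paralog 1, stood at 36.8%. Hoxb13 (85.3%), Hoxa13 (74.2%) and Hoxc13 (42.1%) varied most. Counting alone would give 19.7%, 29.9% and 12.8% for these 3 genes, in each case less than the spread observed. The biological coefficient of variation that edgeR fitted within groups was 103% for Hoxb13, 73.6% for Hoxa13 and 46.5% for Hoxc13, against a median of 12.96% over all tested genes. That median is not matched for level, and the part of low level in the caudal spread was not tested.

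**Figure D2:**
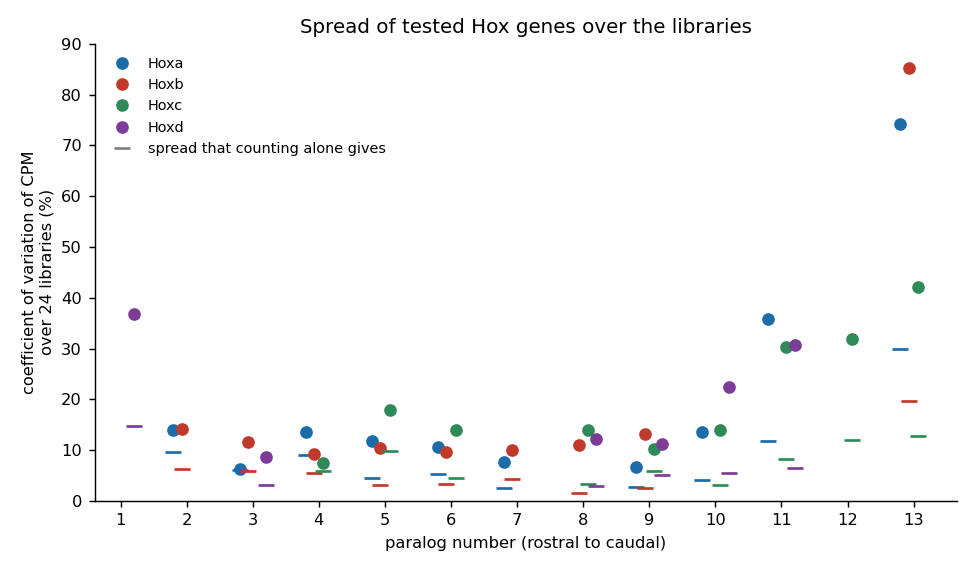
Coefficient of variation of CPM over 24 libraries (percent) for 34 of the 35 tested Hox genes, by paralog number. Circles are genes, coloured by cluster, and dashes the spread that counting alone gives at each gene's mean count. The 7 genes of paralogs 11 to 13 lie between 30.2% and 85.3%.

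The first comparison asked whether mutant Gars alters Hox RNA when Gcn2 is intact. No Hox gene passed: 0 of 35 had an adjusted p below 0.05 (edgeR's quasi-likelihood test, Benjamini-Hochberg adjustment over 17409 genes), where 0.632% of all tested genes did. DESeq2 also called 0. At an unadjusted p below 0.05 there were 7 Hox genes (20%), beside 17.3% of all tested genes, a share near the background. Their values were above 0 for Hoxb2, Hoxb6, Hoxb8, Hoxb9 and Hoxc9 and below 0 for Hoxc8 and Hoxd1. The 95% interval of the difference lay within 2-fold in either direction for 30 of the 35 genes.

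Hoxb9, a gene of thoracic and lumbar levels, had the smallest p. It had 69.1, 82.1, 70.6 and 66.4 CPM in Gcn2+/+ Gars mutant cords, against 58.6, 53.4, 54.3 and 64.8 CPM in Gcn2+/+ Gars wild-type cords. All 4 mutant cords were above all 4 wild-type cords, at a log2 change of 0.33 ± 0.10 (SE; 95% interval 0.11 to 0.54; edgeR adjusted p = 0.129). Hoxb2 had 10.9, 10.9, 9.78 and 10.04 CPM in the mutant cords, against 8.97, 7.38, 8.13 and 8.29 CPM in the wild-type cords. These groups did not overlap either, at 0.34 ± 0.13 on the log2 scale (edgeR adjusted p = 0.173). Hoxb9 and Hoxb2 were named for their small p, which favours groups without overlap. How many of all tested genes separate in this way was not counted. Hoxb6 averaged 38.9 ± 2.40 CPM in the mutant cords and 34.4 ± 3.72 CPM in the wild-type cords (SD, n = 4 each), which overlapped (log2 0.22 ± 0.09; adjusted p = 0.242). Hoxd1 averaged 1.36 ± 0.361 CPM in the mutant cords and 2.17 ± 0.995 CPM in the wild-type cords, with 1 wild-type cord at 0.962 CPM among the mutant values (log2 -0.78 ± 0.34; adjusted p = 0.247). Hoxb8 averaged 149 ± 13.02 and 132 ± 5.87 CPM in the mutant and wild-type cords, and Hoxa7 58.1 ± 8.00 and 57.4 ± 4.15 CPM.

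Markers of other cells differed in this comparison, in part through libraries that stood apart from the rest of their group. Of 13 motor neuron markers, 9 fell in the mutant cords (edgeR, adjusted p below 0.05), and their summed level was 2003 to 2404 CPM in the mutant cords, against 3134 to 3498 CPM in the wild-type cords. The nerve root markers summed to 179 to 3132 CPM in the mutant cords, against 167 to 215 CPM in the wild-type cords. Meninges markers summed to 194 to 1838 CPM in the mutant cords, against 204 to 240 CPM in the wild-type cords, with 0 called and 13 of 18 at an unadjusted p below 0.05. Of 11 sensory ganglion markers 6 were tested, of which 3 rose and 1 fell. The list summed to 15.3 to 19.7 CPM in the mutant cords, against 11.4 to 12.7 CPM in the wild-type cords. Its members Scn10a and Mrgprd were at 0 in 11 and 23 of the 24 libraries, and Isl2 is also among the motor neuron markers. Of 13 cord neuron and glia markers 2 fell, Chat and Slc5a7, which are cholinergic genes and are also among the motor neuron markers. The 8 skeletal muscle markers summed to 1.04 to 80.6 CPM in the mutant cords, with a median of 1.25 CPM, against 0.894 to 1.33 CPM in the wild-type cords. Only 2 of them were tested, and 0 were called. With the nerve root or the meninges score as a covariate, 0 Hox genes were called, as without it. The count could not fall further, so it cannot show what part these markers had in the Hox values. The part of the other markers was not tested. Leaving out the 2 Gcn2+/+ Gars mutant libraries high in nerve root markers (replicates 2 and 4) ended the count of 0: Hoxc13, known for its role in hair, was then called at -2.50 ± 0.43 (adjusted p = 0.0136), and it was called at -2.48 ± 0.44 (adjusted p = 0.0270) without all 5 such libraries. The remaining 2 mutant libraries both bear the title number 24905, which is described further on.

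In Gcn2+/- mice the Gars effect again gave 0 called Hox genes of 35 by edgeR and 0 by DESeq2, where 0.178% of all tested genes were called by edgeR. At an unadjusted p below 0.05 there were 7 Hox genes, 20% against 14.7% of all tested genes. Hoxb7, Hoxd8 and Hoxc8 were higher in the mutant cords, and Hoxc11, Hoxb13, Hoxd10 and Hoxd11 were lower, none past the adjusted threshold. Intervals lay within 2-fold for 28 genes.

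Hoxb7 had 26.3, 24.3, 23.7 and 23.9 CPM in Gcn2+/- Gars mutant cords, against 21.1, 20.8, 19.5 and 19.0 CPM in Gcn2+/- Gars wild-type cords, with no overlap (log2 0.30 ± 0.09; edgeR adjusted p = 0.199). Hoxd8 had 45.2, 57.5, 51.6 and 46.0 CPM in the mutant cords, against 42.3, 43.9, 36.7 and 38.4 CPM in the wild-type cords, again without overlap (log2 0.33 ± 0.11; adjusted p = 0.216). Hoxc11, a gene of lumbar and sacral levels, had 5.30, 4.43, 3.33 and 2.84 CPM in the mutant cords, against 6.34, 6.67, 6.90 and 8.05 CPM in the wild-type cords. Every mutant cord was below every wild-type cord, at -0.81 ± 0.28 on the log2 scale (adjusted p = 0.231). Hoxc8 had 32.3, 36.4, 34.97 and 38.0 CPM in the mutant cords, against 27.2, 32.2, 30.3 and 28.7 CPM in the wild-type cords (log2 0.29 ± 0.12; adjusted p = 0.284). The mutant values of Hoxc8 were all above the wild-type values. Hoxb7, Hoxd8, Hoxc11 and Hoxc8 were likewise named for their small p, which favours such separation, and its share over all tested genes was not counted. In these groups 6 of 13 motor neuron markers and 1 of 13 cord neuron and glia markers fell, and 1 of 6 tested sensory ganglion markers rose. Nerve root markers summed to 153 to 440 CPM in the mutant cords, against 175 to 2689 CPM in the wild-type cords. The covariate fits called 0 Hox genes, as did the fit without a covariate, which cannot show what part such markers had.

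In Gcn2-/- mice 0 of 35 Hox genes were called for the Gars effect by edgeR and 0 by DESeq2, where 0.0115% of all tested genes passed by edgeR. Only Hoxb9 had an unadjusted p below 0.05 (2.86%, against 4.35% of all tested genes). It had 77.6, 56.1, 68.5, 60.2 and 65.7 CPM in Gcn2-/- Gars mutant cords, against 61.2, 50.4 and 54.1 CPM in Gcn2-/- Gars wild-type cords. The groups overlapped, with 2 mutant cords below the highest wild-type cord (log2 0.25 ± 0.10; edgeR adjusted p = 0.941). Hoxd3 averaged 43.3 ± 2.21 CPM in the mutant cords (n = 5) and 38.9 ± 4.65 CPM in the wild-type cords (n = 3), Hoxb2 10.8 ± 0.877 and 9.16 ± 1.96 CPM, and Hoxa13 0.708 ± 0.272 and 0.222 ± 0.164 CPM. Their adjusted p was 0.941 each. Intervals lay within 2-fold for 31 genes. In these groups 2 of 13 motor neuron markers fell.

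Averaged over the 3 Gcn2 genotypes, with 13 mutant and 11 wild-type cords, the Gars effect called 0 of 35 Hox genes by edgeR, beside 0.448% of all tested genes. Hox genes with an unadjusted p below 0.05 numbered 5 (14.3%, against 8.92% of all tested genes), each higher in the mutant cords and each in the Hoxb cluster: Hoxb9, Hoxb6, Hoxb8, Hoxb7 and Hoxb2. Of the 9 tested Hoxb genes 8 had values above 0, with a median of 0.11 on the log2 scale. The medians were 0.03 for Hoxa, -0.04 for Hoxc, -0.05 for Hoxd and 0.00 for all tested genes. Intervals lay within 1.5-fold for 30 genes and within 2-fold for 33.

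Hoxb9 averaged 65.6 ± 8.23 and 55.2 ± 5.49 CPM in Gcn2-/- mutant and wild-type cords, 63.1 ± 2.195 and 56.2 ± 6.80 CPM in Gcn2+/- cords, and 72.1 ± 6.89 and 57.8 ± 5.19 CPM in Gcn2+/+ cords. The mutant mean was the higher of each pair, and the averaged log2 change was 0.25 ± 0.06 (95% interval 0.13 to 0.37; edgeR adjusted p = 0.0747). DESeq2 called this gene, at 0.25 ± 0.06 (adjusted p = 0.00917), and called no other Hox gene in this comparison. In edgeR it was also called when 1 of 4 libraries was left out: Gcn2-/- Gars mutant replicate 2 (adjusted p = 0.0372), Gcn2-/- Gars wild-type replicate 1 (0.0490), Gcn2+/- Gars wild-type replicate 1 (0.0286) or Gcn2+/+ Gars wild-type replicate 4 (0.0373). Its adjusted p ranged from 0.00917 to 0.232 over 36 alternatives, and its log2 change from 0.22 to 0.28. Hoxb6 changed by 0.13 ± 0.05, Hoxb8 by 0.14 ± 0.06 and Hoxb7 by 0.11 ± 0.05 on the log2 scale, with adjusted p of 0.440, 0.447 and 0.543. Motor neuron markers again moved alongside, with 9 of 13 lower in the mutant cords, as did sensory ganglion markers (2 rose and 1 fell of 6) and cord neuron and glia markers (1 fell of 13); their part was not tested. Without the 2 Gcn2+/+ Gars mutant libraries high in nerve root markers Hoxc13 was called instead, at -0.90 ± 0.20 (adjusted p = 0.0486).

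**Figure D3:**
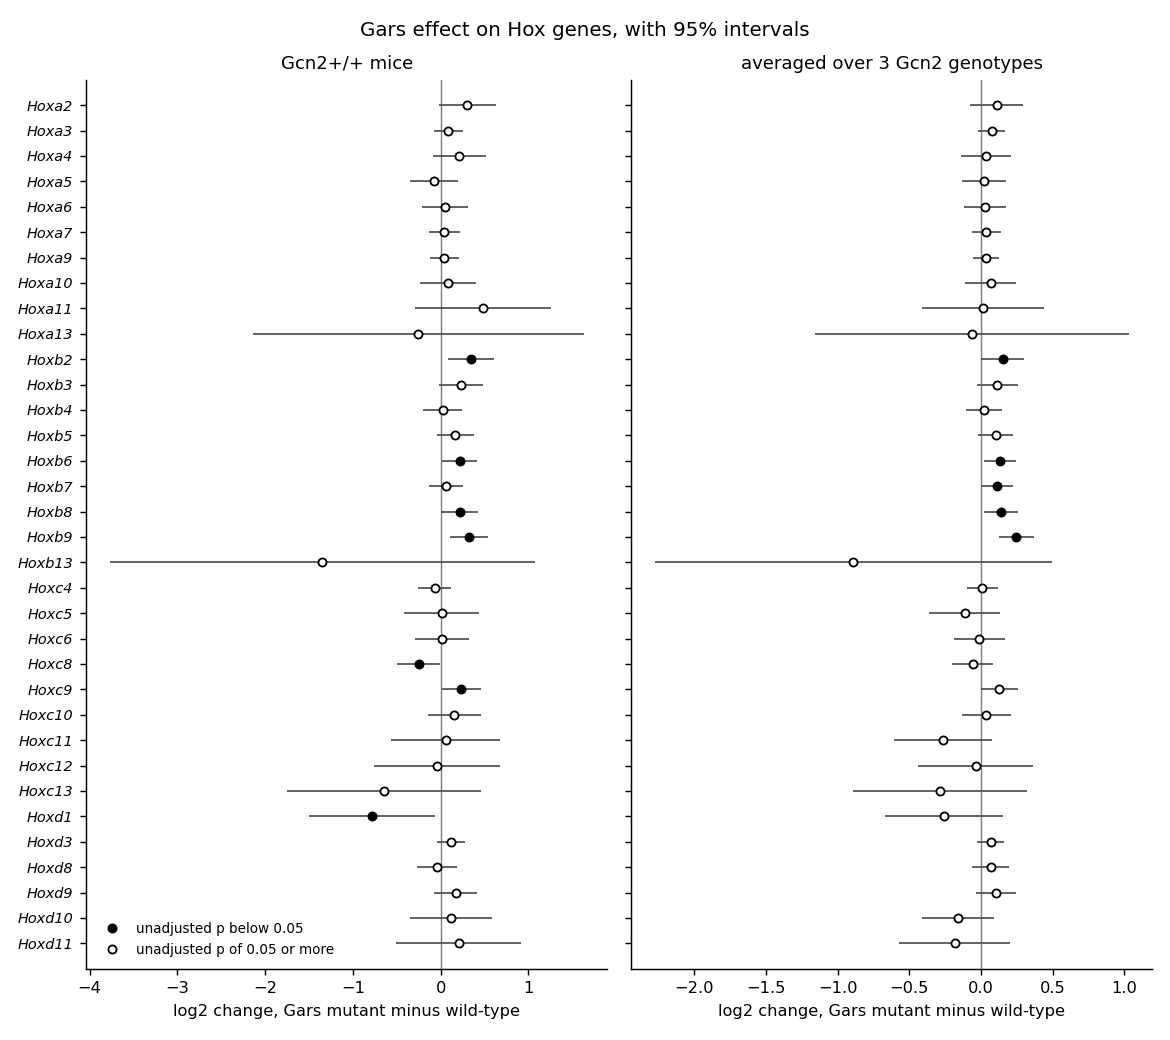
Log2 change of 34 of the 35 tested Hox genes between Gars mutant and Gars wild-type cords in Gcn2+/+ mice (left) and averaged over the Gcn2 genotypes (right), on different x scales. Circles are edgeR estimates, bars 95% intervals, and filled circles have an unadjusted p below 0.05; all filled circles on the right are Hoxb genes, and none passed the adjusted threshold.

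Hoxa, the cluster nearest to Gars, was set beside its surroundings. Of 60 other tested genes within 5 Mb of Gars, 0 were called in the averaged Gars effect by edgeR and 7 had an unadjusted p below 0.05. Over all tested genes the shares were 0.448% and 8.92%. Among the 11 tested Hoxa genes none had an unadjusted p below 0.05 in that comparison, and their log2 changes ran from -0.17 to 0.11.

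The difference of the Gars effect between Gcn2-/- and Gcn2+/+ mice asked whether Hox RNA responds to mutant Gars in a way that needs Gcn2. It called 0 of 35 Hox genes by edgeR and 0 by DESeq2, where 0.0115% of all tested genes were called by edgeR. Also 0 had an unadjusted p below 0.05, against 4.93% of all tested genes. The smallest p belonged to Hoxa4, a neck-level gene, with a difference of -0.43 ± 0.21 (adjusted p = 0.937). It averaged 4.44 ± 0.688 and 5.05 ± 0.792 CPM in Gcn2-/- mutant and wild-type cords, and 4.79 ± 0.804 and 4.33 ± 0.439 CPM in Gcn2+/+ cords. For the scarce caudal genes the estimates were imprecise, at 1.38 ± 0.76 for Hoxc13, 2.53 ± 1.61 for Hoxb13 and 1.97 ± 1.28 for Hoxa13, and their intervals all held 0. Hoxc13 was called in this difference without the 2 Gcn2+/+ Gars mutant libraries high in nerve root markers (3.16 ± 0.53; adjusted p = 0.0423).

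The difference between Gcn2+/- and Gcn2+/+ mice also called 0 of 35 Hox genes by edgeR, against 3.7% of all tested genes, and 4 had an unadjusted p below 0.05 (11.4%, against 23.4%). Hoxc8 came nearest to the threshold, and DESeq2 called it. In Gcn2+/- cords it had 32.3, 36.4, 34.97 and 38.0 CPM with mutant Gars, against 27.2, 32.2, 30.3 and 28.7 CPM with wild-type Gars. In Gcn2+/+ cords it had 38.8, 22.2, 30.6 and 33.7 CPM with mutant Gars, against 34.7, 39.7, 38.9 and 40.4 CPM with wild-type Gars. The mutant mean was higher with 1 Gcn2 copy and lower with 2, a difference of 0.54 ± 0.16 on the log2 scale (95% interval 0.20 to 0.87; edgeR adjusted p = 0.0592; DESeq2 0.54 ± 0.17, adjusted p = 0.0244). In Gcn2-/- cords Hoxc8 had 29.8, 29.9, 35.1, 30.6 and 28.2 CPM with mutant Gars, against 39.3, 31.7 and 33.9 CPM with wild-type Gars. A relation of Hoxc8 to the number of Gcn2 copies was not tested. Leaving out Gcn2+/- Gars mutant replicate 1, Gcn2+/+ Gars mutant replicate 1 or Gcn2+/+ Gars wild-type replicate 1 made edgeR call it too (adjusted p = 0.0311, 0.0471 and 0.0292). The lowest mutant value, 22.2 CPM, came from Gcn2+/+ Gars mutant replicate 2, one of the libraries high in nerve root markers.

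Hoxb2, Hoxd8 and Hoxc11 followed, with differences of -0.47 ± 0.17, 0.37 ± 0.15 and -0.86 ± 0.40 (adjusted p = 0.101, 0.136 and 0.200). Hoxb2 averaged 10.2 ± 1.27 and 11.2 ± 1.23 CPM in Gcn2+/- mutant and wild-type cords, and 10.4 ± 0.592 and 8.19 ± 0.653 CPM in Gcn2+/+ cords. Nerve root markers moved with this comparison: they were highest in 2 wild-type cords among Gcn2+/- mice and in 2 mutant cords among Gcn2+/+ mice, and 8 of the 14 nerve root markers and 3 of 18 tested meninges markers were called lower in it. With the nerve root score as a covariate 0 Hox genes were called, as without it, so that count cannot show what part these markers had. The comparisons above share their Gcn2+/+ cords, so they are not independent of one another.

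**Figure D4:**
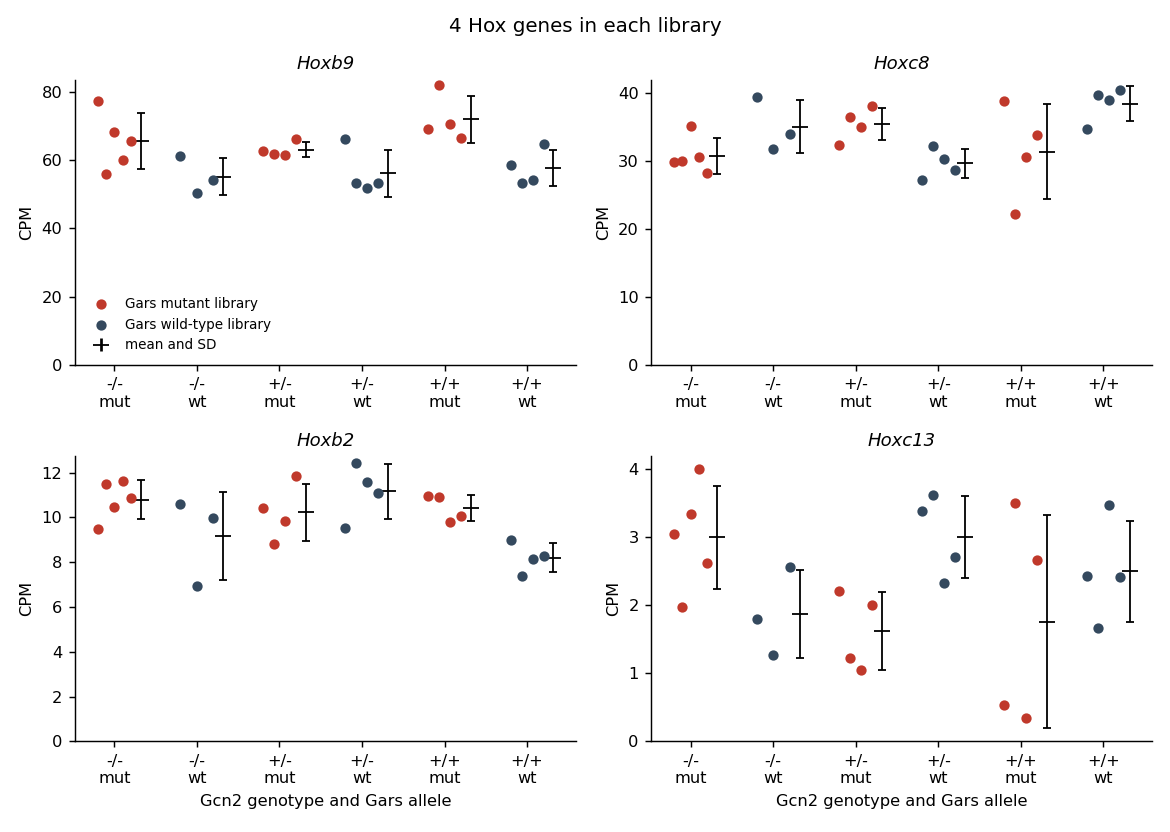
CPM of Hoxb9, Hoxc8, Hoxb2 and Hoxc13 in each library, by Gcn2 genotype and Gars allele (mut, mutant; wt, wild-type); axes start at 0. Red points are Gars mutant libraries, dark points Gars wild-type libraries, and black bars the mean and SD of each group. Hoxb9 is higher on average in the mutant cords of every pair, while Hoxc8 is higher in Gcn2+/- mutant cords and lower on average in the other mutant groups.

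Loss of Gcn2 by itself was compared in each Gars background. In Gars wild-type mice, Gcn2-/- against Gcn2+/+, 0 of 35 Hox genes were called by edgeR and 0 by DESeq2, beside 0.0287% of all tested genes, and 0 had an unadjusted p below 0.05 (3.68% of all). In Gars mutant mice again 0 were called by both tools, beside 0.494% of all tested genes by edgeR, with 0 at an unadjusted p below 0.05 (10% of all). The median Hox log2 changes were 0.05 and 0.00, and intervals lay within 2-fold for 30 genes in each. Hoxd10 had the smallest p in Gars wild-type mice, with 14.1, 14.4 and 17.2 CPM in Gcn2-/- cords, against 15.1, 14.7, 10.4 and 7.69 CPM in Gcn2+/+ cords. The ranges overlapped, and the Gcn2+/+ cords were the more scattered (log2 0.46 ± 0.23; edgeR adjusted p = 1.00). Hoxc12 had the smallest p in Gars mutant mice, with 3.84, 2.84, 2.60, 4.44 and 2.76 CPM in Gcn2-/- cords, against 1.42, 3.92, 0.981 and 2.47 CPM in Gcn2+/+ cords (log2 0.60 ± 0.32; adjusted p = 0.563). Hoxc13 was next, with 3.04, 1.97, 3.34, 3.99 and 2.62 CPM in Gcn2-/- cords, against 0.533, 3.49, 0.338 and 2.66 CPM in Gcn2+/+ cords. The Gcn2+/+ values fell into 2 cords below 1 CPM and 2 within the range of the Gcn2-/- cords (log2 0.87 ± 0.49; adjusted p = 0.590). Without those 2 higher Gcn2+/+ libraries, which are those high in nerve root markers, it was called at 2.78 ± 0.42 (adjusted p = 0.00426), and at 2.78 ± 0.43 (adjusted p = 0.0129) without all 5 such libraries. The Gcn2+/+ Gars mutant libraries then left both bear title number 24905, which no Gcn2-/- Gars mutant library bears. Gcn2 genotype and title number thus cannot be told apart in these 2 fits. In this comparison 6 of 13 motor neuron markers and 1 of 13 cord neuron and glia markers rose and 2 of 6 sensory ganglion markers fell, and 15 of 18 meninges and 11 of 14 nerve root markers had an unadjusted p below 0.05. With the nerve root or the meninges score as a covariate 0 Hox genes were called, as without it, so that count cannot show what part they had. The part of the other markers was not tested.

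Averaged over the Gars alleles, Gcn2-/- against Gcn2+/+ called 0 of 35 Hox genes by either tool, where edgeR called 0.62% of all tested genes. Hoxd10 alone had an unadjusted p below 0.05 (2.86%, against 6.55% of all), at 0.32 ± 0.15 on the log2 scale (adjusted p = 0.738). Hoxc13 was called without the same 2 Gcn2+/+ libraries (1.19 ± 0.26; adjusted p = 0.0454). Hoxd11 followed Hoxd10 at 0.42 ± 0.22. Of the 6 tested Hoxd genes 5 lay above 0, with a median of 0.11. Hoxd lies on the chromosome of Eif2ak4, 43.6 Mb away, and a link of this position to the values was not tested. Gcn2+/- against Gcn2+/+ called 0 of 35 by either tool, beside 0.00574% of all tested genes by edgeR. Hoxb2 alone had an unadjusted p below 0.05 (2.86%, against 3.75%), at 0.21 ± 0.09 (adjusted p = 1.00). It averaged 10.2 ± 1.27 and 11.2 ± 1.23 CPM in Gcn2+/- mutant and wild-type cords and 10.4 ± 0.592 and 8.19 ± 0.653 CPM in Gcn2+/+ cords. Hoxc10 changed by 0.19 ± 0.10 and Hoxa11 by -0.38 ± 0.25. Intervals of both averaged comparisons lay within 2-fold for 33 genes.

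Between males and females 0 of 35 Hox genes were called by edgeR or DESeq2, beside 0.0804% of all tested genes by edgeR. Hoxb5, a gene of the neck and upper trunk, alone had an unadjusted p below 0.05 (2.86%, against 2.79% of all), at 0.13 ± 0.06 for male minus female (adjusted p = 1.00). Intervals lay within 1.5-fold for 30 genes.

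The summed TPM of all Hox genes was 831 ± 52.3 and 765 ± 71.0 TPM in Gcn2-/- cords with mutant and wild-type Gars, 805 ± 57.5 and 823 ± 42.1 TPM in Gcn2+/- cords, and 852 ± 56.97 and 732 ± 60.3 TPM in Gcn2+/+ cords (SD, n = 3 to 5). In Gcn2+/+ cords the ranges, 777 to 912 TPM in mutant and 679 to 798 TPM in wild-type cords, overlapped. This sum was not tested. The paralog 9 genes gave 149 ± 19.1 TPM in Gcn2+/+ mutant cords and 112 ± 14.7 TPM in Gcn2+/+ wild-type cords, and the paralog 8 genes 232 ± 20.2 and 199 ± 11.3 TPM. These sums were not tested either, and TPM and CPM can differ in spread. Hoxa9, of paralog 9, had a coefficient of variation of 18.5% in TPM over the 24 libraries, against 6.69% in CPM. Gaps between groups in TPM therefore need not hold in CPM, the scale of the tests.

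A single figure for how caudal a library is was taken as the log2 ratio of the summed CPM of paralogs 10 to 13 to that of paralogs 4 to 8. It averaged -2.14 ± 0.10 and -2.16 ± 0.07 in Gcn2-/- cords with mutant and wild-type Gars, -2.45 ± 0.22 and -2.10 ± 0.10 in Gcn2+/- cords, and -2.39 ± 0.45 and -2.37 ± 0.18 in Gcn2+/+ cords (SD, n = 3 to 5). The widest gap was in Gcn2+/- mice, where the mutant cords ran from -2.65 to -2.25 and the wild-type cords from -2.203 to -2.01, with no overlap. Single libraries ran from -2.87 to -1.84, both in Gcn2+/+ Gars mutant cords. These are descriptions, with no test, since the index was chosen with the data known. Hoxd4 has no value and is missing from the sum of paralogs 4 to 8.

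Many caudal genes varied together, most closely within 2 sets that were drawn up after the values were seen. Among the 10 tested members of paralogs 10 to 13, 45 pairs were correlated as log2(CPM + 0.1) over the 24 libraries, and 16 had a permutation p of Pearson's r below 0.05 after adjustment over the 45. Of these, 12 lay within the sets, 1 between them and 3 with Hoxc10. The first set held the tested paralog 12 and 13 genes Hoxa13, Hoxb13, Hoxc12 and Hoxc13, which lie on 3 chromosomes. Hoxd12 and Hoxd13 were too scarce to be tested and were not correlated. Hoxb13 against Hoxc13 gave r = 0.889 and Spearman's rho = 0.841, each with a two-sided permutation p of 1e-05, the smallest that 100000 permutations can give (adjusted 5e-05 and 0.00018). Without the 2 libraries farthest from the median on the x axis r was 0.872, and after removal of group means it was 0.855. Hoxa13 against Hoxb13 gave r = 0.889 (rho = 0.851) and Hoxc12 against Hoxc13 r = 0.872 (rho = 0.777). The 6 pairs of this set ran from r = 0.777 to 0.889.

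The second set held Hoxd10, Hoxd11, Hoxc11 and Hoxa11, from 3 chromosomes likewise. Hoxd10 against Hoxd11 gave r = 0.879 and rho = 0.786 (permutation p = 1e-05 and 2e-05; adjusted 5e-05 and 0.00018), with r = 0.838 without the 2 farthest libraries and 0.819 after removal of group means. Hoxd10 against Hoxc11, on another chromosome, gave r = 0.860 (rho = 0.806). The 6 pairs ran from r = 0.579 to 0.879. Between the sets the 16 pairs ran from r = 0.030 to 0.533, with a median of 0.287. The highest, Hoxc11 against Hoxc12, passed (r = 0.533, rho = 0.607; permutation, adjusted p of r = 0.0206) and came close to the lowest pair within the second set, so the sets are not sharply apart. Hoxb13 against Hoxd10 gave r = 0.161 and rho = 0.052 (permutation p = 0.451 and 0.812; adjusted 0.563 and 0.849), and Hoxa13 against Hoxd11 r = 0.274 (rho = 0.215). The difference between these correlations was not tested. Hoxa10 and Hoxc10, placed in neither set, correlated with each other (r = 0.648, rho = 0.468), and Hoxc10 with Hoxd10 (r = 0.596, rho = 0.340) and Hoxc11 (r = 0.531, rho = 0.498). Splitting by title number, in the 12 libraries with numbers 24905 to 25006 r was 0.900 for Hoxb13 and Hoxc13, 0.930 for Hoxd10 and Hoxd11 and 0.083 for Hoxb13 and Hoxd10. In the 12 with numbers 25102 to 25801 the same pairs gave 0.901, 0.864 and 0.257. In the 19 libraries with low nerve root markers they gave 0.906, 0.910 and 0.284. All points share the scaling to the library total.

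Of the libraries at the low end of the first set, several shared a title number. Hoxb13 was at 0, 0, 0.0395 and 0.0747 CPM in the 4 libraries numbered 24905, which belong to Gcn2-/- Gars wild-type, Gcn2+/- Gars mutant and Gcn2+/+ Gars mutant groups. In the other 20 libraries it was at 0.0497 to 2.74 CPM. The 2 values of 0 allow up to 3 counts. Hoxc13 was at 0.338 to 1.27 CPM in the 24905 libraries, against 1.79 to 3.47 CPM in the 5 numbered 24906, 1.04 to 3.99 in the 6 numbered 25102 and 1.97 to 3.62 in the 4 numbered 25103. Hoxd10 and Hoxd11 of the same 24905 libraries, at 8.66 to 14.4 and 5.47 to 8.998 CPM, lay inside the range of the others. Leaving these 4 libraries out, Hoxb13 against Hoxc13 still gave r = 0.809 over 20 libraries.

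**Figure D5:**
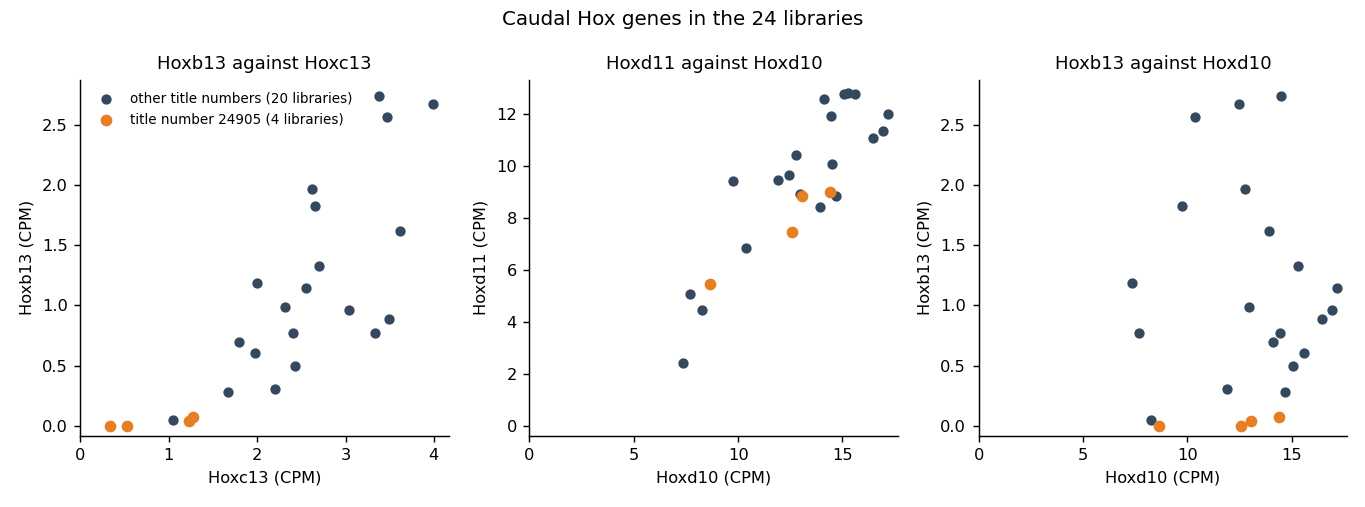
CPM of Hoxb13 against Hoxc13 (left), Hoxd11 against Hoxd10 (middle) and Hoxb13 against Hoxd10 (right), 1 point per library. Orange points are the 4 libraries with title number 24905 and dark points the other 20. The left and middle pairs rise together (r = 0.889 and 0.879 of the log2 values) and the right pair does not (r = 0.161), and all orange points lie near 0 CPM of Hoxb13.

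A test among the title numbers with at least 4 libraries, chosen after these values were seen and with genotype and sex in the model, called 0 of 35 Hox genes by edgeR, where 5.01% of 17475 genes were called. Unadjusted p was below 0.05 for Hoxa6 (0.00708; adjusted 0.0861), Hoxb13 (0.0119; adjusted 0.115), Hoxb4 (0.0177; adjusted 0.141) and Hoxc6 (0.0254; adjusted 0.168). DESeq2 called Hoxb13 alone (adjusted p = 0.00186). Because the Gcn2+/+ Gars mutant group holds 2 libraries of title number 24905 and the Gcn2+/+ Gars wild-type group none, title number and Gars allele are partly confounded for the caudal genes there. Without the 2 Gcn2+/+ Gars mutant libraries high in nerve root markers, every library left in that group bears this number. Title number and Gars allele cannot be told apart in Gcn2+/+ mice in that fit. With title number as a term in the genotype fits, 0 Hox genes were called in every comparison, as without it. That count cannot show what part title number had.

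Genes that act with or upstream of Hox proteins were taken from lists chosen with earlier results known. All 9 cofactors of the Pbx, Meis and Pknox families were detected, from 14.7 TPM (Pknox1) to 40.3 TPM (Pbx2), and 0 were called in any comparison by edgeR. The smallest p values in the averaged Gars effect were those of Pknox2 (0.10 ± 0.04; adjusted p = 0.398) and Meis1 (0.11 ± 0.06; adjusted p = 0.638). Of 8 other cluster and ParaHox homeobox genes, the Hox-linked Evx1 and Evx2 were tested and not called, at 0.08 ± 0.12 and 0.03 ± 0.14 in the same comparison. Cdx1, Cdx2 and Pdx1 were at 0 in all 24 libraries and Cdx4 in 22.

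Of 15 genes of retinoic acid, Fgf and Gdf signalling 13 were tested, and 1 was called in 1 comparison. Aldh1a2, which makes retinoic acid, differed by -4.89 ± 1.25 in the Gars effect between Gcn2+/- and Gcn2+/+ mice (adjusted p = 0.0435). It is also a meninges marker, and ran from 0.587 to 26.9 CPM with the libraries high in meninges and nerve root markers. In the averaged Gars effect Acvr2b (0.22 ± 0.08; adjusted p = 0.364), a receptor of Gdf11, and Gdf11 (-0.10 ± 0.04; adjusted p = 0.398), which sets the trunk to tail transition, had the smallest p. Fgf8 was at 0 in all libraries.

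Of 19 Polycomb genes, which repress Hox clusters, Phc3 rose and Pcgf2 fell in the difference of the Gars effect between Gcn2+/- and Gcn2+/+ mice (0.38 ± 0.10 and -0.55 ± 0.15; adjusted p = 0.0427 and 0.0491), and 0 were called in the other 10 comparisons. That comparison called 3.7% of all tested genes. Of 16 Trithorax and chromatin genes that keep Hox clusters active, 1 was called: the X-linked demethylase Kdm6a was lower in males (-0.59 ± 0.06; adjusted p = 8.32e-06). Of 8 genes of motor columns that depend on Hox codes, only Aldh1a2 was called, as above. Lhx3, of medial motor neurons, and Etv4, of limb motor pools, had the smallest p in the averaged Gars effect (0.40 ± 0.12 and -0.14 ± 0.05; adjusted p = 0.202 and 0.391).

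Non-coding genes inside the clusters gave the same picture. Of 43 in the annotation 38 had values, 13 were tested and 0 were called in any comparison. In the averaged Gars effect the smallest p values were those of Hotair, the Hoxc antisense RNA (-0.43 ± 0.19; adjusted p = 0.464; 1.04 to 4.30 CPM), Hotairm1 of the Hoxa cluster (-0.25 ± 0.12; adjusted p = 0.596), Hoxd3os1 (0.21 ± 0.12; adjusted p = 0.680) and Gm53 (0.10 ± 0.06; adjusted p = 0.700). Hoxb3os, antisense to Hoxb2 and Hoxb3, stood at 9.12 to 14.5 CPM and changed by -0.06 ± 0.08. The 6 microRNA genes of the clusters together had 0.95 expected counts over 24 libraries. Poly(A) selection is not designed to capture short RNA.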

How the data were processed

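Poly(A)-selected RNA of 24 whole spinal cords was sequenced as paired 75-base reads with KAPA Stranded mRNA-Seq and KAPA mRNA HyperPrep kits, per the labels' protocols, which do not tie kits to libraries. The deposited tables give an expected count and a TPM value per gene, which the authors estimated with RSEM; the submitters' processing notes list its version as 1.2.12 beside Bowtie2 2.2.0. Build, annotation and strand setting of the counting are not stated there or in the labels. Gene IDs were matched to GENCODE M21 for names.

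The deposited expected counts were rounded, filtered (filterByExpr) and tested with edgeR 4.0.16 (quasi-likelihood, TMM, 6 groups plus sex; R 4.3.3), with adjustment over 17409 genes. DESeq2 1.42.0 was an alternative. Scripts were tested on simulated data. The deposited TPM values served to compare levels between genes. Title number, nerve root and meninges scores, filters, normalization and left-out libraries were varied. Log2 values of the correlations and scores used CPM + 0.1.

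Named are members called in any comparison, up to 4 with the smallest p per comparison, and per cluster the most abundant and the most caudal tested member; 1 member enters counts and sums but is not reported by itself here. The members and lists were chosen with earlier results of these data known. Replicates are separate mice as far as the labels say, and p-values measure the spread between these samples. The 95% intervals of log2 changes come from the same fit and measure the same spread; limits for counts of 0 cover counting error only.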

Additional observations from a re-analysis of the deposited data

Results flagged for a closer look

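Among 120 sets of values (23 named Hox genes and the caudal index, each in the 5 groups of 4 or 5 cords), 2 held a cord far from the rest of its group by Dixon's test, which chance gives in about 1 of 20. Hoxb9 was at 66.3 CPM in Gcn2+/- Gars wild-type replicate 1, while the other 3 cords of that group were at 51.9 to 53.3 CPM. Hoxc11 was at 9.61 CPM in Gcn2+/+ Gars mutant replicate 2, while the other 3 were at 3.52 to 4.498 CPM. Both cords are among the 5 with high nerve root markers, which summed to 1439 and 1430 CPM in them; the part of these markers in the Hox values was not tested.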

How the results depend on the processing

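Across 38 other settings of the 11 genotype and sex comparisons, 16 of 411 pairs of comparison and setting called a Hox gene, 1 gene each; the test among title numbers is not in these counts. DESeq2 called 1 in the averaged Gars effect (Hoxb9), 1 in the Gars effect of Gcn2+/- minus Gcn2+/+ mice (Hoxc8) and 1 among title numbers (Hoxb13). Without both Gcn2+/+ Gars mutant libraries high in nerve root markers 1 (Hoxc13) was called in the Gars effect in Gcn2+/+ mice, the averaged Gars effect, its difference between Gcn2-/- and Gcn2+/+ mice, and the effect of Gcn2-/- in Gars mutant mice and averaged. Without all 5 such libraries, a choice made after seeing the data, 1 was called in the Gars effect in Gcn2+/+ mice and in the effect of Gcn2-/- in Gars mutant mice. Leaving out 1 library gave 0 to 1 called genes in the averaged Gars effect and in the Gars effect of Gcn2+/- minus Gcn2+/+ mice, and 0 to 0 in the other comparisons. In the fits without both or all 5 libraries high in nerve root markers, the only Gcn2+/+ Gars mutant libraries left bear title number 24905. The cause of the calls was not tested. No named Hox gene changed sign in the comparisons it was named for.

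Replicate numbers were given in accession order and pair nothing. With title number as a replicate block, 0 Hox genes were called in every comparison, as without it. The Gars difference of the caudal index (mutant minus wild-type) was -0.20 to 0.15 in Gcn2+/+, -0.42 to -0.29 in Gcn2+/- and -0.02 to 0.05 in Gcn2-/- mice with 1 library left out; as a mean of log2 values it was -0.78 in Gcn2+/- and 0.36 in Gcn2-/- mice.

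Counts over all genes moved more. They ranged from 11 to 648 (Gars effect in Gcn2+/+ mice, 110 as reported), 4 to 191 (Gcn2+/-, 31), 1 to 26 (Gcn2-/-, 2), 42 to 205 (averaged, 78), 0 to 35 and 0 to 1784 (differences for Gcn2-/- and Gcn2+/-, 2 and 644), 3 to 38, 21 to 249 and 58 to 204 (Gcn2-/- in wild-type and mutant Gars and averaged, 5, 86 and 108), 0 to 11 (Gcn2+/- averaged, 1), 8 to 22 (sex, 14) and 362 to 1708 (title numbers, 876). Depth limits Hoxb1, Hoxd12 and Hoxd13, which were not tested.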
